A study of Mus musculus with 4 samples.

Results

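The genes described are 10 that handle zinc in the cell, chosen by symbol from the table of read counts: the metallothioneins Mt1 and Mt2, the zinc sensor Mtf1, the importers Slc39a14, Slc39a10, Slc39a6 and Slc39a1, and the exporters Slc30a1, Slc30a5 and Slc30a7. All 10 were found, each in 1 row of the 23282 genes used. The cells were C2C12 myotubes, the fused, multinucleated form of an established mouse myoblast line. They were kept without steroids and then given vehicle or 1 µM dexamethasone, a synthetic glucocorticoid, for 2 h, with 2 libraries per group. RNA retained on chromatin was sequenced. The labels name both a stranded total RNA kit and a stranded mRNA kit, so whether RNA without a poly(A) tail was counted is not settled.

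Metallothioneins are small, cysteine-rich proteins that bind zinc and copper in the cytosol. Their transcription is driven by MTF-1, the product of Mtf1, which senses free zinc and binds metal response elements in promoters, and glucocorticoids have long been known as another inducer. SLC39 proteins (ZIP) carry zinc into the cytosol and SLC30 proteins (ZnT) carry it out or into organelles. In muscle, metallothionein transcripts and the importer Slc39a14 are both known from wasting states.

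Total counts lay between 19631435 and 88596296 per library. Fkbp5, a glucocorticoid-induced gene used as a check of the labels, had 21.5 and 21.6 scaled CPM (counts scaled by TMM to a common library total) in vehicle and 1019 and 697 in dexamethasone (edgeR quasi-likelihood adjusted p of 0.0429). All 11 myotube markers had at least 10 counts in every library, and their summed level was 124919 to 129403 scaled CPM in both replicate 1 libraries against 45261 to 46222 in both replicate 2 libraries. Most of that sum was Ttn (113355 to 118127 against 39943 to 41070 CPM). The gap was also present in other markers, among them Ckm (53.6 and 50.6 against 6.98 and 7.72 CPM) and Actn2 (438 and 410 against 134 and 122). Myh3, Acta1, Neb, Des and Myog showed it too, and Tnnt3 a smaller one (378 and 434 against 327 and 334). The gap was not shared by Mymk (176 and 173 CPM in vehicle, 208 and 208 in dexamethasone) or Tnnt2 (466 and 518, then 640 and 631), and in these both dexamethasone libraries were above both vehicle libraries. Across 13285 tested genes, log2 CPM correlated more closely between libraries of the same replicate number (Pearson's r of 0.981 and 0.989 across genes, which are not independent) than between libraries of 1 group (0.973 and 0.980). The blood cell markers Ptprc and Hba-a1 had at most 1 count per library, while Cd68 had 2.92 to 3.87 CPM. Of the endothelial markers, Pecam1 had 0.734 to 1.13 CPM and Cdh5 at most 17 counts. Of 4 fat cell markers only Pparg had 10 counts in every library (58.8 to 90.4 CPM). The markers of undifferentiated myoblasts, Pax7 and Myf5, summed to 34.0 and 40.1 CPM in vehicle and 20.2 and 24.3 in dexamethasone. That difference was in Pax7 (log2 fold change of -0.80, edgeR adjusted p of 0.456), while Myf5, with 1.05 to 2.27 CPM, overlapped between the groups (0.30). The groups also overlapped in the summed markers of dividing cells. The part of these marker differences in the results below was not tested. In bulk samples fewer cells of a type and less RNA per cell cannot be told apart, and the labels do not say whether libraries came from separate cultures, so p-values measure only the spread between these libraries.

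RefSeq promoter windows, on build GRCm38.p6, were matched by symbol for 8 of the 10 genes, all but Slc39a14 and Slc39a6. The sequences of the metallothionein pair are shown because these genes were higher together after dexamethasone, and that of Slc30a1, another zinc-responsive gene, because it was not. Each run is the 250 bases before the RefSeq start, on the plus strand, 5′ to 3′. Capitals mark the metal response element core, searched as TGCGCNC and TGCACNC on both strands. The windows are chr8:94178839-94179088 for Mt1, chr8:94172368-94172617 for Mt2 and chr1:191906531-191906780 for Slc30a1.
Mt1: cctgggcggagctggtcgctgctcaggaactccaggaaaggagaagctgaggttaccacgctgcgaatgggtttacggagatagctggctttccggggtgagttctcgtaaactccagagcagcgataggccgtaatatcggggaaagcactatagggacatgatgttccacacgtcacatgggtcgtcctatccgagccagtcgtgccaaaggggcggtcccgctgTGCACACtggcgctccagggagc
Mt2: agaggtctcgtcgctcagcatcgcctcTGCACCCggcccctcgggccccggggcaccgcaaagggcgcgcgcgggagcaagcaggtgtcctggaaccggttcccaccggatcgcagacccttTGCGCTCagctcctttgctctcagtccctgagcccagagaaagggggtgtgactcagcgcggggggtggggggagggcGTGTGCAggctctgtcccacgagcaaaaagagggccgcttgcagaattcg
Slc30a1: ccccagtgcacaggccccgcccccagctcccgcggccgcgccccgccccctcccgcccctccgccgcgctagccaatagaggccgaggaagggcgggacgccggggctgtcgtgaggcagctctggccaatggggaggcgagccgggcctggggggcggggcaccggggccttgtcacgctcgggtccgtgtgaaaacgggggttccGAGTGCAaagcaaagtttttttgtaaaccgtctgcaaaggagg

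With the 50 bases after the start included, the Mt2 window held 4 matches to either form of the core and the Mt1 window 3. Slc30a1 held 2, Slc30a5 held 1, and the windows of Mtf1, Slc30a7, Slc39a1 and Slc39a10 held 0. Of 32851 RefSeq windows of this length, 25.7% held at least 1 match, 7.11% at least 2, 1.97% at least 3 and 0.517% at least 4. In Mt1, 2 of the matches lie just after the RefSeq start, within a site of 30 bases at chr8:94179089-94179118.
Mt1 site: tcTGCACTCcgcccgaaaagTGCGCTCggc
The start itself is not settled, since GENCODE M21 also lists Mt1 transcripts that begin 122 and 152 bases further downstream. Its only Mt2 transcripts begin 46 and 242 bases downstream of the RefSeq start, and 1 for Slc30a1 begins 475 bases downstream. Bases beyond the 50 after the RefSeq start were not searched. The full palindrome of the glucocorticoid response element, searched as AGAACA and TGTTCT with NNN between them, had no match in any of the 8 genes' windows and is held by 0.00913% of all windows. Either arm by itself was matched in Mtf1 and Slc30a5, and 19% of all windows hold it. A match is a description of letters, not of a bound site, and the absence of one says only that these letters are not in this window.

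The comparison of dexamethasone with vehicle addresses which genes respond to the hormone at the level of chromatin-bound RNA after 2 h. The 10 zinc genes divided into 3 that were several-fold higher and 7 with small differences. Mt1, Mt2 and Slc39a14 were 6.22-fold, 13.7-fold and 3.65-fold higher in dexamethasone. The largest difference among the other 7 was that of Slc39a1, at -0.22 on the log2 scale. None of the 10 passed an adjusted p of 0.05 in edgeR's quasi-likelihood test over all genes with no term but group, a threshold that 0.0376% of tested genes passed. With a replicate block, a term for replicate number, 3 of the 10 passed as higher, beside 6.87% of all tested genes. At an unadjusted p under 0.05, 3 of the 10 were higher and 0 lower, where 4.09% of all tested genes were higher and 1.69% lower. The 10 were chosen with earlier results of these data known, so counts among them beside such shares are a description, not a test. In 4 of the 10 the dexamethasone libraries both exceeded both vehicle libraries, and in 0 both were lower, beside 15% and 12.9% of all tested genes. The median log2 fold change of the 10 was 0.08, against -0.0016 over all tested genes.

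**Figure D1:**
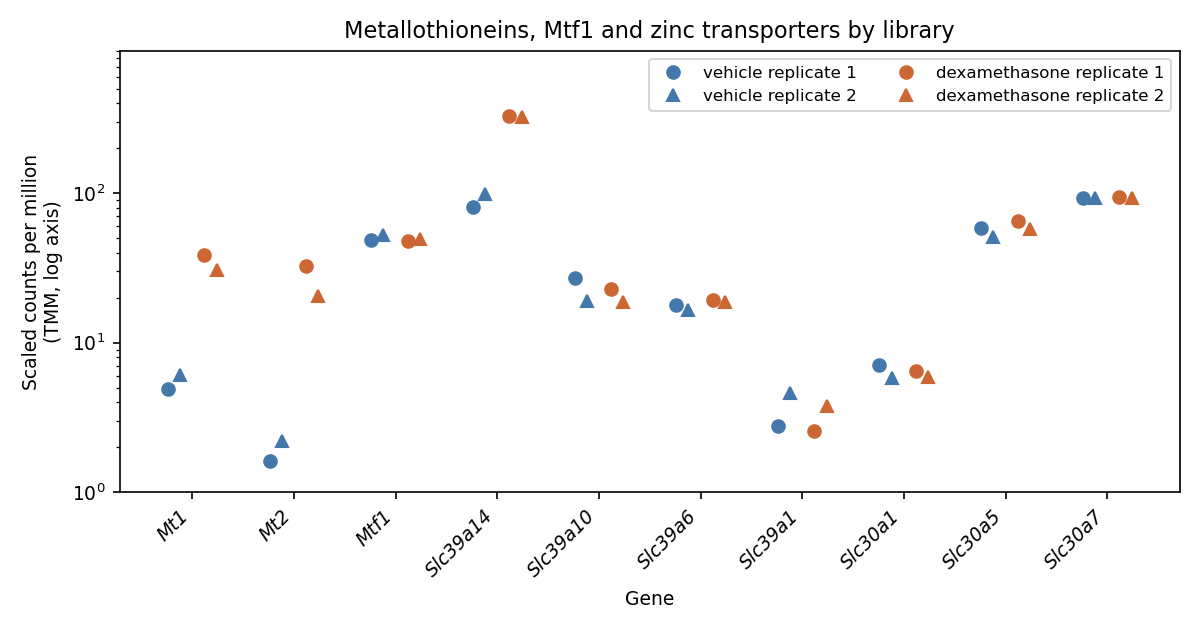
Scaled CPM (log axis) of each of the 10 genes in the 4 libraries, with vehicle in blue and dexamethasone in orange, replicate 1 as circles and replicate 2 as triangles. Mt1, Mt2 and Slc39a14 show a wide gap between the groups, and the groups of Slc39a6 are separated by a narrow one.

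Mt1 (ENSMUSG00000031765), one of the pair of widely expressed metallothioneins, had 92 and 232 counts without dexamethasone and 1156 and 2852 with it. Scaled, that is 4.94 and 6.11 CPM against 38.6 and 30.5 CPM. Each dexamethasone library was several times either vehicle library, at most 7.81-fold, and the groups did not overlap. The log2 fold change was 2.64 (SE 0.219, 95% interval 2.06 to 3.22), with an edgeR unadjusted p of 0.000126 and an adjusted p of 0.117. By log2 fold change it was number 42 of 13285 genes.

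Mt2 (ENSMUSG00000031762), its neighbour and close relative, had the fewest counts of the 10 in vehicle, 30 and 84 counts, against 980 and 1911 in dexamethasone. Its levels were 1.61 and 2.21 CPM in vehicle and 32.7 and 20.5 CPM in dexamethasone. The groups stood apart by at least 9.25-fold, and dexamethasone replicate 1 was the highest library for both metallothioneins. The log2 fold change was 3.77 (SE 0.346, 95% interval 2.86 to 4.69), with an unadjusted p of 0.000195 and an adjusted p of 0.117 in edgeR. By log2 fold change it was number 18 of all tested genes.

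The ratio of Mt2 to Mt1 within a library does not depend on its total. It was 0.326 and 0.362 in vehicle and 0.848 and 0.670 in dexamethasone, higher in both treated libraries. On the log2 scale the difference between groups was 1.13 (means of -1.54 and -0.41), with an exact two-sided permutation p of 0.333, the smallest that 2 against 2 libraries can give. Per kilobase of annotated exon the same ratio was 0.691 and 0.767 in vehicle and 1.80 and 1.42 in dexamethasone. Per kilobase of gene span it was 0.449 and 0.498 in vehicle and 1.17 and 0.923 in dexamethasone. The annotated exons of Mt1 cover its whole span of 1246 bases, and those of Mt2 cover 588 of 905. Which of the pair was the more abundant in dexamethasone therefore depends on the length used, and per span on the library. The difference between groups does not depend on length. The longest stretch of identical bases between annotated Mt1 and Mt2 transcripts was 20 bases, and no run of 25 bases was shared. Longer reads of these transcripts without mismatches can therefore be told apart between the pair. They were not compared with any other sequence. Mt2 also shares 432 exon bases with the antisense gene Gm45774, which was not analysed here. Both kits named in the labels are stranded, but the strand setting of the counting is not given in the sources used here.

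**Figure D2:**
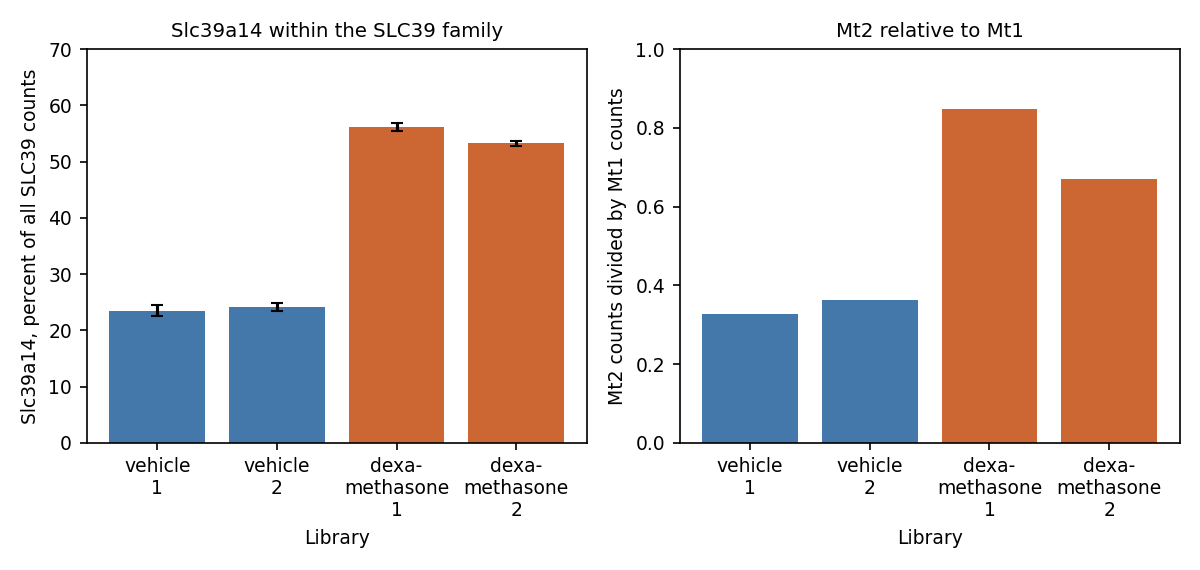
Left, Slc39a14 counts as a percent of all counts of the 14 SLC39 genes in each library, with 95% Wilson intervals; right, Mt2 counts divided by Mt1 counts in each library. Both measures are free of library size, and in both the dexamethasone libraries (56.2% and 53.3%, ratios of 0.848 and 0.670) lie above the vehicle libraries (23.5% and 24.1%, ratios of 0.326 and 0.362).

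Mt3 and Mt4, the brain and squamous epithelium members of the family, adjoin the pair on the chromosome and had at most 5 counts in any library, too few to test. The nearest 10 protein-coding genes around the pair were looked at for their position alone, after the values of Mt1 and Mt2 were known. Of these 8 were tested, 4 of them (Nudt21, Ogfod1, Bbs2 and Nup93) had both dexamethasone libraries above both vehicle libraries, and 0 had them below, beside 15% and 12.9% of all tested genes. Their differences were far smaller than those of the metallothioneins. Bbs2, a gene of the ciliary BBSome complex, had 23.7 and 24.4 CPM in vehicle and 36.7 and 33.7 in dexamethasone, a log2 fold change of 0.55 (SE 0.139, edgeR adjusted p of 0.457). Nup93, which encodes a scaffold protein of the nuclear pore, had a log2 fold change of 0.42 (SE 0.150, edgeR adjusted p of 0.800). None of the 8 passed the threshold in edgeR without a replicate block, limma-voom or DESeq2. With the block 3 did, all higher, beside 6.87% of all tested genes. At an unadjusted p under 0.05, edgeR's quasi-likelihood test and limma-voom gave 2 higher, DESeq2 and the likelihood ratio test 1. Over all tested genes 4.09% were higher at that p in the quasi-likelihood test. Of 13285 genes, limma-voom gave 540 higher at that p, DESeq2 502 and the likelihood ratio test 534.

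**Figure D3:**
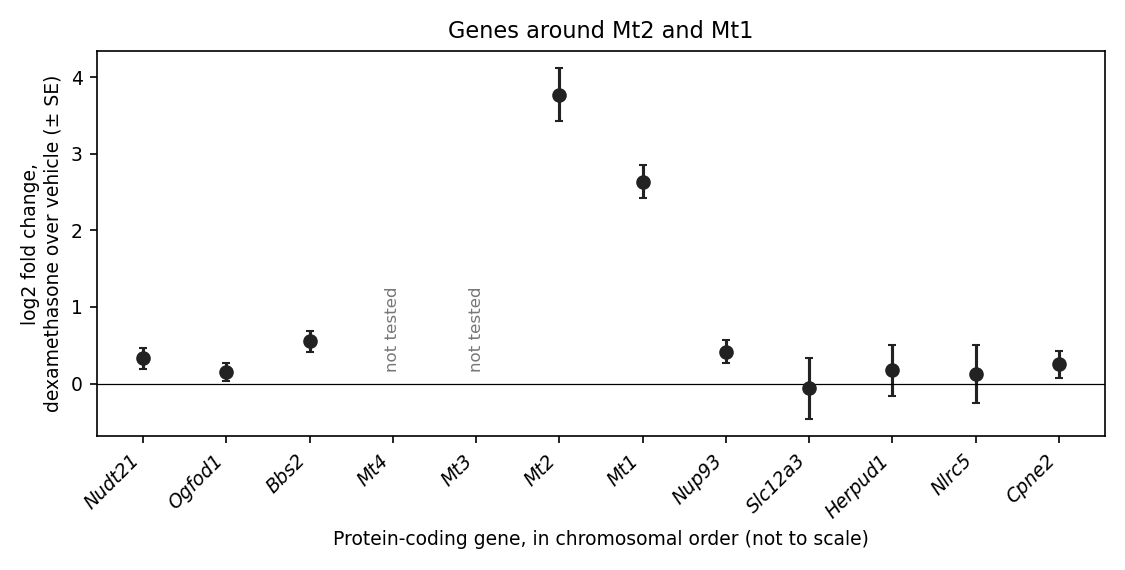
Log2 fold change (dexamethasone over vehicle, bars are the SE) of protein-coding genes in their order along the chromosome around Mt2 and Mt1, with distances not to scale. Mt2 and Mt1 stand at 3.77 and 2.64, Bbs2 follows at 0.55, and Mt4 and Mt3 had too few counts to test.

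Mtf1 (ENSMUSG00000028890), the zinc-sensing activator of the metallothioneins, differed little. It had 48.5 and 52.5 CPM in vehicle and 48.3 and 49.8 CPM in dexamethasone, and the groups overlapped. The log2 fold change was -0.04 (SE 0.128, edgeR adjusted p of 1.00), and its 95% interval ran from -0.38 to 0.29. Changes of its chromatin-bound RNA beyond a factor of 0.767 or 1.23 lay outside that interval. In its annotation 721 exon bases overlap 1110065P20Rik on the opposite strand, which had 24 to 145 counts per library against 905 to 4650 for Mtf1.

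Slc39a14 (ENSMUSG00000022094) encodes ZIP14, an importer at the plasma membrane that carries iron and manganese as well as zinc. It had 1506 and 3730 counts in vehicle and 9909 and 30247 in dexamethasone. Scaled, the levels were 80.8 and 98.3 CPM in vehicle and 331 and 324 CPM in dexamethasone, so the treated libraries lay close to each other and at least 3.30-fold above either vehicle library. The log2 fold change was 1.87 (SE 0.153, 95% interval 1.46 to 2.27), with an unadjusted p of 0.000119 and an adjusted p of 0.117 in edgeR. That unadjusted p was number 12 of 13285 genes from the smallest, just ahead of Mt1 at number 13, with Mt2 at number 21.

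Slc39a14 was also compared with its family of 14 genes. Its share of the SLC39 counts was 23.5% (95% Wilson interval 22.5% to 24.5%) and 24.1% (23.4% to 24.8%) in vehicle, and 56.2% (55.5% to 56.9%) and 53.3% (52.9% to 53.7%) in dexamethasone, with a wide gap between the groups. These intervals cover counting error only. The other 13 genes together had 263 and 309 CPM in vehicle and 257 and 284 CPM in dexamethasone, which overlap. Slc39a8, which encodes the closest relative of ZIP14 and carries the same metals, had 2.25 and 1.87 CPM in vehicle and 2.44 and 2.46 CPM in dexamethasone, a log2 fold change of 0.25 (SE 0.282, edgeR adjusted p of 1.00). The log2 ratio of Slc39a14 to Slc39a8 was 5.16 and 5.72 in vehicle and 7.08 and 7.04 in dexamethasone, a difference of 1.62 with an exact two-sided permutation p of 0.333, the smallest possible here.

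The other 3 importers among the 10 genes showed small differences. Slc39a6 (ZIP6, a plasma membrane importer) had 17.8 and 16.7 CPM in vehicle and 19.2 and 18.8 CPM in dexamethasone. Its groups did not overlap, but the log2 fold change was 0.14 (SE 0.147, 95% interval -0.24 to 0.53, edgeR adjusted p of 1.00). Slc39a6 overlaps Elp2 on the opposite strand, with 0 exon bases shared. Elp2 had 1753 to 9745 counts per library against 332 to 1757 for Slc39a6. Slc39a10, which encodes ZIP10, the close relative and partner of ZIP6, had 27.1 and 18.9 CPM in vehicle and 22.9 and 18.6 CPM in dexamethasone. In it both replicate 1 libraries were above both replicate 2 libraries, and the log2 fold change was -0.15 (SE 0.242, 95% interval -0.79 to 0.49). Slc39a1 (ZIP1, a widespread plasma membrane importer) had 2.79 and 4.61 CPM in vehicle and 2.57 and 3.79 CPM in dexamethasone. Here both replicate 1 libraries were the lower ones, and the log2 fold change of -0.22 has a wide 95% interval, from -1.22 to 0.78.

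In each of the 3 exporters the groups overlapped. Slc30a1 (ZnT1, the exporter of the plasma membrane and itself a known MTF-1 target) had 7.08 and 5.82 CPM in vehicle and 6.44 and 5.93 CPM in dexamethasone. Its log2 fold change was -0.06 (SE 0.212, 95% interval -0.62 to 0.50), so the interval holds changes up to 1.42-fold and none of the size seen in Mt1. It shares 468 exon bases with the antisense gene 1700034H15Rik, which had 29 to 169 counts against 132 to 554 for Slc30a1. Slc30a5 (ZnT5, which loads zinc into the secretory pathway) had 58.9 and 51.2 CPM in vehicle and 65.1 and 57.4 CPM in dexamethasone, a log2 fold change of 0.15 (95% interval -0.24 to 0.55). Slc30a7 (ZnT7, of the Golgi) had the smallest difference of the 10, with 93.1 and 92.4 CPM in vehicle and 94.3 and 92.7 CPM in dexamethasone. Its log2 fold change was 0.01 (SE 0.114, 95% interval -0.29 to 0.31), and its direction flipped under other scalings. The edgeR adjusted p was 1.00 for each of these 3 genes and for Slc39a10 and Slc39a1. Slc30a7 shares 637 exon bases with Gm43106 and 1165 with Gm6649, processed pseudogenes on the opposite strand that were not analysed here.

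**Figure D4:**
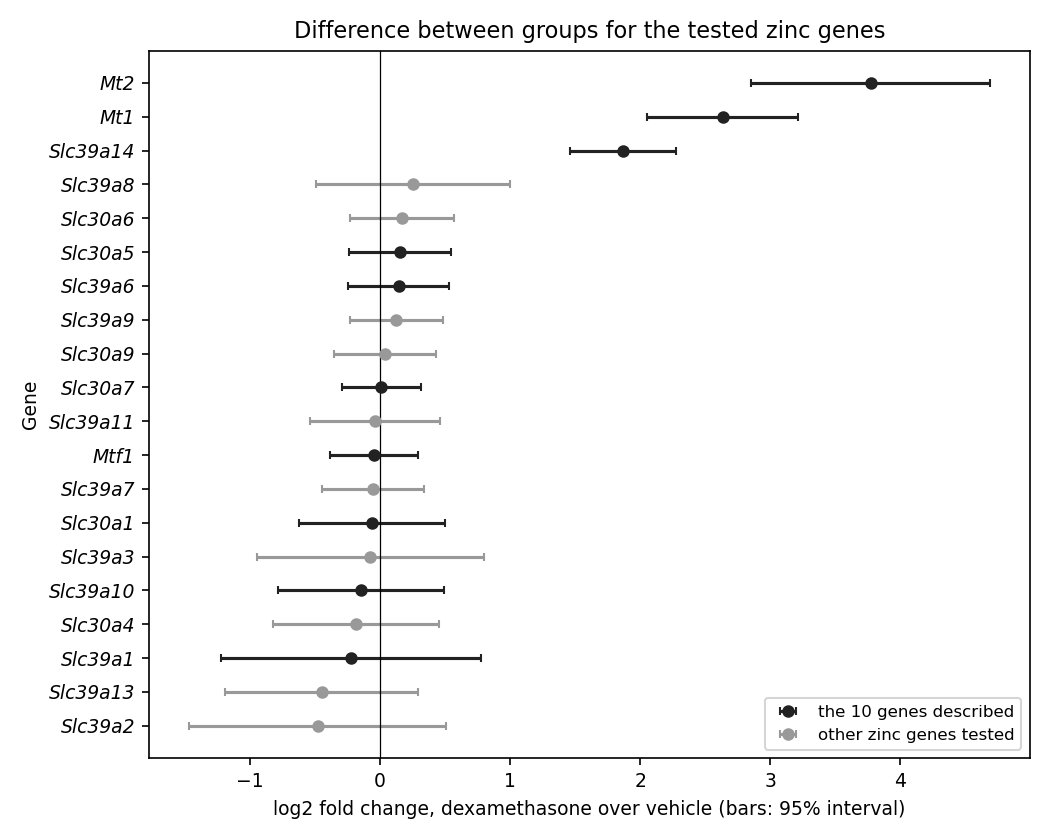
Log2 fold change (dexamethasone over vehicle) with 95% intervals for the 10 genes described (black) and the 10 other zinc genes abundant enough to test (grey). The intervals of Mt2, Mt1 and Slc39a14 lie above 1, and those of the 17 others include 0.

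Levels can be compared between genes only per length, here as scaled CPM per kilobase of annotated exon, with the caution that the features counted by the authors are not given in the sources used here. On that scale Slc39a14 (8.49 ± 1.17, SD, n = 2), Slc30a7 (8.35 ± 0.0432) and Slc30a5 (7.55 ± 0.744) were the highest in vehicle, and the range of Slc39a14 overlapped those of both others. Mtf1 followed at 5.68 ± 0.318. Mt1 (4.43 ± 0.669), Slc39a6 (4.23 ± 0.200), Slc39a10 (3.77 ± 0.951) and Mt2 (3.25 ± 0.727) stood in an order in which adjacent genes differed by no more than their spread, and Slc39a1 (1.57 ± 0.545) and Slc30a1 (1.23 ± 0.169) were the lowest, with ranges that overlapped. In dexamethasone Mt2 (45.2 ± 14.7), Slc39a14 (31.0 ± 0.446) and Mt1 (27.7 ± 4.55) came first. Both Mt2 libraries (55.6 and 34.8) were above both of Slc39a14 (31.3 and 30.7), though the means differed by less than the SD of Mt2, and Slc39a14 and Mt1 overlapped. Next in order, Slc30a7 stood at 8.41 ± 0.0983. Per kilobase of gene span the vehicle order began with Mt1 and Mt2 instead, and the same 3 genes came first in both groups. For Mt1 the value is the same on either scale, since its annotated exons cover its whole span.

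Beyond the 10 genes, a list of 19 other zinc genes held the rest of the metallothioneins and of both transporter families. Of these 10 were abundant enough to test, and 0 passed in edgeR over all genes in either direction without a replicate block. With it 1 did (Slc39a13, lower), beside 768 of 13285 genes called lower. Without the block 0 were under an unadjusted p of 0.05, in edgeR as in DESeq2 and limma-voom. Among all tested genes 4.09% were higher at that p in edgeR and 1.69% lower. In 3 of the 10 other zinc genes both dexamethasone libraries were above both vehicle libraries (Slc39a8, Slc30a6 and Slc39a9, with log2 fold changes of 0.25, 0.17 and 0.13), and in 1 below (Slc39a2, at -0.48, SE 0.372). That is to be read beside the 15% and 12.9% of all tested genes. Their median log2 fold change was -0.04. The 9 untested genes, Mt3, Mt4, Slc39a4, Slc39a5, Slc39a12, Slc30a2, Slc30a3, Slc30a8 and Slc30a10, had at most 20 counts in any library. Slc30a8, the exporter of insulin granules, had 0 counts in all 4 libraries, which allows up to 0.161 CPM in the library with the smallest total. In both transporter families together, Slc39a14 apart, 16 of 23 genes were tested and their log2 fold changes ran from -0.48 to 0.25.

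The genes most like each of the 3 were found by Euclidean distance between log2 CPM values centred on their mean over the 4 libraries, among 11630 genes. This describes these libraries and uses the same contrast, so it tests nothing. Nearest to Mt1 were Plin4, a lipid droplet protein gene (distance 0.257), then Per1 (0.435), Spsb1 (0.438) and Col4a2 (0.440). Nearest to Mt2 were Mertk (0.417), Errfi1 (0.607), Pi15 (0.680) and Rgs2 (0.803). For Slc39a14, added after its values were seen, they were Ampd3 (0.124), Rhoj (0.130), Map3k6 (0.144) and Prps2 (0.154). Ampd3, the erythrocyte-type AMP deaminase, had 21.6 and 26.0 CPM in vehicle and 96.1 and 93.9 CPM in dexamethasone. Mt1 and Mt2 were not among each other's 4 nearest genes.

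Whether Mt1, Mt2 and Slc39a14 were called depended on the test and on single libraries. All 3 passed, as higher, under DESeq2's Wald test (1.77% of all tested genes higher), edgeR's likelihood ratio test (1.83%) and the quasi-likelihood test on every gene with a count (0.129%). With the replicate block (6.87%) all 3 passed too, at quasi-likelihood adjusted p of 0.000106 to 0.000235, 1 residual degree of freedom being left. Their adjusted p was between 0.124 and 0.140 under limma-voom. That test called 0% of all genes, while its unadjusted p was under 0.05 for 540 higher and 231 lower genes, the 3 zinc genes among them. Without vehicle replicate 2 all 3 passed (0.613% of all genes higher). Without dexamethasone replicate 1 (0.174%) or dexamethasone replicate 2 (0.205%) Mt1 and Mt2 passed, and without vehicle replicate 1 (0.0295%) none did. Their log2 fold changes over these 4 fits ran from 2.47 to 2.81 for Mt1, from 3.41 to 4.07 for Mt2 and from 1.74 to 2.03 for Slc39a14.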

How the data were processed

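Chromatin-bound RNA from 2 vehicle and 2 dexamethasone libraries was measured. The authors deposited unnormalized read counts by gene, with 1 column per library. The columns are named Control or DEX with a number. Control columns were taken as the vehicle libraries and DEX columns as the dexamethasone libraries of the same replicate number. Per the submitters' processing notes, TopHat2 2.0.13, SAMtools 1.1, HTSeq 0.6.1, DESeq2 1.18.1 and the build mm9 were used; their roles, the annotation and the counted features are not given in the sources used here. Of 23333 rows, 51 repeated a gene and all its counts and were used once, and no row lacked a gene name.

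Genes were filtered with filterByExpr (minimum count 10, minimum total 15), scaled by TMM and tested with edgeR 4.0.16 (R 4.3.3) by the quasi-likelihood test, two-sided and with no term but group, Benjamini-Hochberg adjusted over 13285 genes at 0.05. SE is the log2 fold change divided by the root of F, and 95% intervals use 4.56 degrees of freedom. CPM are TMM-scaled, and log2 CPM have a prior count of 2. Totals of 19631435 to 88596296 counts set the precision of low genes.

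Exon lengths, overlaps and gene order came from GENCODE M21 (GRCm38), matched on the Ensembl identifier, and promoters from RefSeq GRCm38.p6. The alternatives were other scalings (DESeq2 size factors, upper quartile, library size only), other filters, DESeq2 1.42.0, limma-voom (limma 3.58.1), edgeR's likelihood ratio test, a replicate block and leaving out each library. The genes named were the 10, Fkbp5, cell type markers, those of the lists with the largest separated differences, untested list members, and the 4 nearest to Mt1 and to Mt2 among genes with at least 20 counts in every library. Those nearest to Slc39a14, the chromosomal neighbours of Mt1 and Mt2, and annotated overlapping genes were added after values were seen. Members and lists were chosen with earlier results of these data known.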

Additional observations from a re-analysis of the deposited data

How the results depend on the processing

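The number of genes called, 5 higher and 0 lower over all tested genes and 0 of the 10 zinc genes, depended on the test. Over all genes, the Wald test of DESeq2 gave 235 higher and 53 lower, the likelihood ratio test 243 and 45, every gene with a count 23 higher, and limma-voom 0 (unadjusted p under 0.05: 540 higher, 231 lower). Each of these but limma-voom called 3 of the 10 zinc genes, all higher: Mt1, Mt2 and Slc39a14. The cause was not tested. Whether equal replicate numbers mark paired libraries is not given in the labels, and 2 pairs are too few to establish it. With the replicate block, 913 genes (6.87%) were higher and 768 lower, and the same 3 zinc genes were called higher, 1 residual degree of freedom being left. The block also called 1 of the 10 other zinc genes tested (Slc39a13, lower), 3 of the 8 tested neighbours of Mt1 and Mt2 (Bbs2, Nudt21 and Nup93, higher), and 3 higher (Atp7a, Fth1 and Gclc) and 1 lower (Slc40a1, log2 fold change of -0.53, SE 0.0688, adjusted p of 0.00437) of the 16 copper, iron and oxidant defence genes. The differences between replicates correlated across genes between the groups (r = 0.734). Leaving out each library gave 4 to 84 genes higher and 0 to 109 lower over all, the highest of both without vehicle replicate 2, and 0 to 3 of the zinc genes. A lone library is there assumed to vary like the other group.

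The difference between groups in the log2 ratio of Mt2 to Mt1 ran from 0.96 to 1.30 without single libraries. Small log2 fold changes changed sign when libraries were left out: Mtf1 ran from -0.0989 to 0.0221, Slc39a10 from -0.38 to 0.13, Slc39a1 from -0.54 to 0.21 and Slc30a1 from -0.19 to 0.0861. Slc30a7 was at -0.0013 with DESeq2 size factors, -0.0277 with library size only, -0.0163 with upper quartile scaling and -0.0014 in DESeq2. Of 130 alternative values for the 10 genes, 102 kept direction and side of the threshold, 19 newly passed it and 9 changed sign. Genes near 10 counts in the smallest library have little precision.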

Other observations

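Metal handling outside zinc was looked at through 17 genes of copper, iron and oxidant defence, of which 16 were tested. None passed an adjusted p of 0.05 in edgeR over all genes without a replicate block. With it 3 were higher and 1 lower (Slc40a1), beside 913 (6.87%) higher and 768 lower of 13285 genes. At an unadjusted p under 0.05 without the block there were 0 higher and 1 lower, with the same counts in DESeq2 and limma-voom. In edgeR 4.09% of all tested genes were higher at that p and 1.69% lower. The 1 lower gene was again Slc40a1, which encodes ferroportin, the iron exporter. It had 33.8 and 31.3 CPM in vehicle and 24.0 and 21.2 CPM in dexamethasone, a log2 fold change of -0.53 (SE 0.150, edgeR unadjusted p of 0.0195, adjusted p of 0.556). Both dexamethasone libraries were also below both vehicle libraries in Ftl1, the ferritin light chain gene (log2 fold change of -0.36, SE 0.226), and above them in Tfrc, the transferrin receptor gene (0.28, SE 0.170). These 2 lower genes and 1 higher gene are to be read beside 12.9% and 15% of all tested genes. Atp7b, a copper exporter gene, had at most 20 counts in any library and was not tested. The median log2 fold change of the 16 was -0.01.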
